A study of Mus musculus with 4 samples.

Results

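The genes described here are 10 members of the BCL2 family, the proteins that decide whether the outer membrane of the mitochondrion stays intact. The genes were fixed by symbol, with earlier results of these data known, and their probe sets are every one that the platform annotation pairs with exactly 1 of these symbols. This gave 27 probe sets of 9 genes among the 22626 probe sets on the array other than controls. The survival members were Bcl2, Bcl2l1 (BCL-XL), Bcl2l2 (BCL-W) and Mcl1, the pore-forming effector was Bak1, and the BH3-only members were Bad, Bid, Bcl2l11 (BIM) and Bbc3 (PUMA). Bax, the second effector, had no probe set with that symbol in the annotation used here and is therefore without a value. The cells were bone marrow-derived mast cells grown for 4 to 6 weeks in 5 ng/ml interleukin-3 from mice 8 to 12 weeks old. One genotype was wild-type (Pac1+/+). The other was Pac1-/-, without the dual-specificity MAP kinase phosphatase that Dusp2 encodes. All cultures had carried IgE against dinitrophenyl (100 ng/ml) for 18 h and then received the antigen DNP-HSA (20 ng/ml) for 2 h, which crosslinks the IgE receptor FceRI. Each genotype had 2 cultures, 1 array each, numbered replicates 1 and 2. No unstimulated culture was among the arrays, so the values describe activated cells only.

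Survival members hold BAK and BAX in check by binding them or by binding the BH3-only proteins. BH3-only proteins are stress sensors that either occupy the groove of the survival members or activate the effectors directly, and open effector pores release cytochrome c, which starts the caspase cascade. Mast cells depend on interleukin-3 and on stem cell factor for survival, and activation through FceRI is known to alter the level of several family members. MAP kinases, the substrates of Pac1, phosphorylate BIM and MCL1 and thereby alter how fast these proteins are degraded, a step that an mRNA measurement does not see.

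Per the labels, Kit and FceRI were present on over 98% of the cells, and 500 to 1000 ng of RNA was amplified with a poly(T) primer, that is from the 3' end. The arrays differed in ways that touch the results below. The ratio of 3' to 5' signal for beta-actin was 109 and 1.58 on wild-type replicates 1 and 2 and 293 and 54.8 on Pac1-/- replicates 1 and 2, so it was higher in Pac1-/- within either replicate number. The same ratio for GAPDH lay between 0.80 and 1.36 on 3 arrays and was 191 on Pac1-/- replicate 2. That array also had the smallest share of probe sets with a deposited intensity of at least 100, 27.7% against 33.0% to 33.9% elsewhere. Of 14 mast cell markers, 12 had a probe set and 11 read at least 100 on all 4 arrays by their brightest probe set, with a summed level of 52036 to 57677 in wild-type and 50567 to 61001 in Pac1-/- cells. The macrophage list, with 7 of 7 genes measured, summed to 7972 and 582 in wild-type and 6099 and 604 in Pac1-/- cells. It was thus far higher on the replicate 1 arrays, and 2 of its genes, Adgre1 and Cd68, read at least 100 on all 4 arrays. Of the other lists, the neutrophil, basophil and eosinophil, lymphocyte and stromal genes had no member at 100 or more on all arrays, with sums of 92 to 299 in wild-type and 41 to 490.3 in Pac1-/- cells, while 1 of 3 measured erythroid and megakaryocyte genes, Itga2b, did (sums 2069 and 3231 against 1766 and 517). No measured gene of these lists read 0 on every array. Dusp2 itself read 167 and 90.7 in wild-type and 109 and 75.5 in Pac1-/- cells (log2 difference -0.44 ± 0.51, SE; limma adjusted p = 0.888). Nothing in the labels says whether its probes lie in the deleted part, and the signal is no check of the genotype.

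Across the family, no member was called different between the genotypes. Bcl2 read lower in Pac1-/- cells by 3.47-fold. For Mcl1, 4 of the 6 probe sets read higher while 1416881_at was at -1.05 on the log2 scale. Bid read higher by its only tested probe set, and Bbc3 read lower. Of Bcl2l11, 1435448_at read higher (0.94), while 1426334_a_at was at -1.41 and 1456005_a_at at -0.01. Of the 27 probe sets, 16, of 8 genes, had a mean normalised intensity of at least 100 and were tested. For 3 of the 16 that minimum was met although 1 genotype averaged under 100, namely Bad 1416582_a_at (wild-type) and Bcl2l11 1426334_a_at and Bbc3 (Pac1-/-), so their differences and tests rest partly on the filter. By limma's adjusted p, 0 of the 16 were called, as were 0% of the 7770 probe sets tested in all, and the lowest adjusted p of a member was 0.866. At an unadjusted p under 0.05 there was 1 member, Bcl2, against 3.38% of all tested probe sets (1.13% lower, 2.25% higher). The 2 genotypes did not overlap in 11 of the 16, higher in 7 and lower in 4, where 37.7% of all tested probe sets did not overlap (24.3% higher and 13.4% lower). These 11 include 5 probe sets of 1 gene, Mcl1, and are therefore not separate pieces of evidence. The median log2 difference of the tested members, Pac1-/- minus wild-type, was 0.004, against 0.06 over all tested probe sets, with 8 above and 8 below zero. RNA came from whole cultures, so fewer cells with a transcript and less transcript per cell cannot be told apart.

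**Figure D1:**
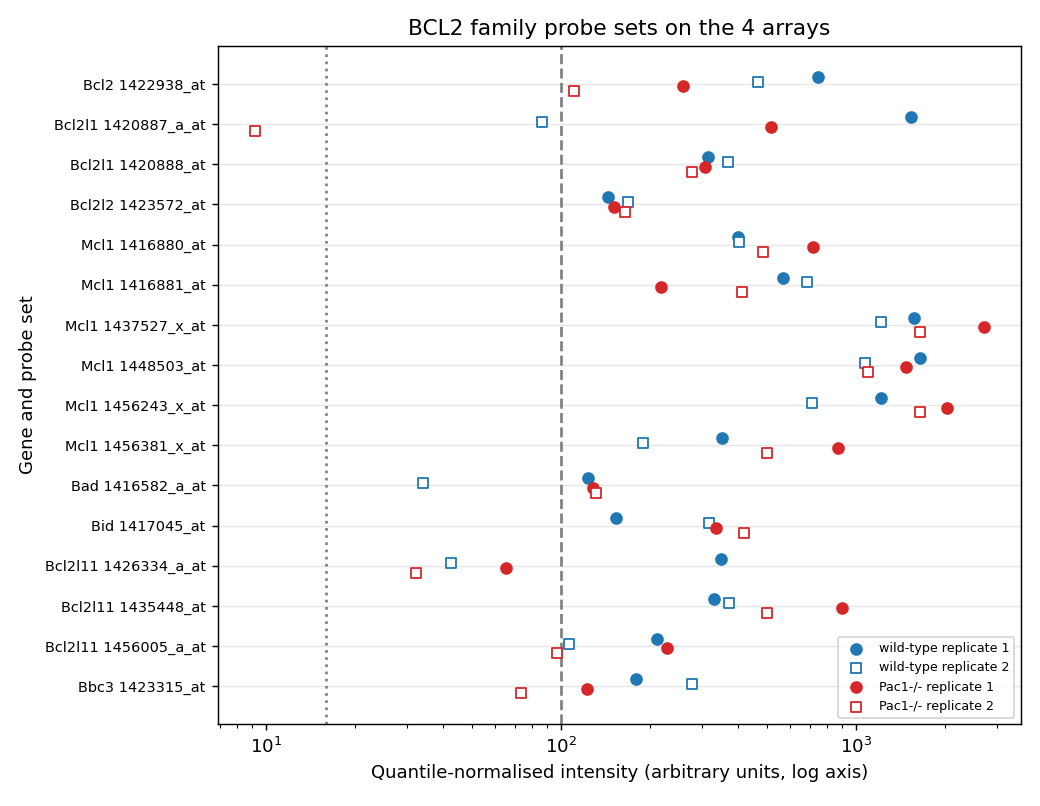
Quantile-normalised intensity (log axis, arbitrary units) of the 16 tested probe sets on each array; blue marks wild-type and red Pac1-/-, filled circles replicate 1 and open squares replicate 2, the dashed line the minimum of 100 for the mean and the dotted line the floor of 16. Both Pac1-/- arrays lie left of both wild-type arrays for Bcl2, Bbc3, Mcl1 1416881_at and Bcl2l1 1420888_at. They lie right of them for 4 other probe sets of Mcl1 and for Bad 1416582_a_at, Bid 1417045_at and Bcl2l11 1435448_at. Bcl2l1 1420887_a_at spreads from 9.2 to 1544.

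Bcl2, the founding survival member, has 1 probe set on this array (1422938_at). It read 745 and 464 in wild-type replicates 1 and 2 and 259.8 and 111 in Pac1-/- replicates 1 and 2. Both Pac1-/- arrays were thus below both wild-type arrays, and in each genotype replicate 2 was below replicate 1. On the log2 scale the means were 9.20 ± 0.48 in wild-type and 7.41 ± 0.87 in Pac1-/- cells (SD, n = 2), a difference of -1.79 ± 0.62 (SE; 95% confidence interval -3.57 to -0.02; limma unadjusted p = 0.0484, adjusted p = 0.866). Taken within the replicate numbers the difference was -1.52 (replicate 1) and -2.07 (replicate 2). It stayed below zero under each alternative run, between -2.41 and -1.18, but its unadjusted p was 0.0692 on the values as deposited and 0.115 with each array centred on its median. It was -1.18 without Pac1-/- replicate 2, the array with the high GAPDH ratio, -1.45 with wild-type replicate 1 left out and -2.13 with wild-type replicate 2 left out, and omitting any of these 3 arrays ended limma's unadjusted call. The 3' to 5' ratio of beta-actin was higher in Pac1-/- cells, where Bcl2 was lower, in both replicate numbers. Within each genotype, replicate 2 had the lower beta-actin ratio and also the lower Bcl2 signal. The GAPDH ratio was 191 on Pac1-/- replicate 2, where Bcl2 read lowest, and 0.80 to 1.36 on the other arrays. The part of either ratio in the result was not tested. The bases before the Bcl2 start are shown because Bcl2 was the only member past the unadjusted threshold. They lie at chr1:106714291-106714540 on the minus strand (RefSeq, GRCm38.p6) and are the 250 bases that end at the base before the annotated start.
Bcl2: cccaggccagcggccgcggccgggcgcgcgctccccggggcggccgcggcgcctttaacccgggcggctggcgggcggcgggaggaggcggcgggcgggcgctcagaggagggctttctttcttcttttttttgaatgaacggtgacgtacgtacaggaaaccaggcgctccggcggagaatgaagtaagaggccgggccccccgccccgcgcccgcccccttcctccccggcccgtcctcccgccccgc
None of 7 motifs was found in these letters on either strand. The motifs searched were AP-1 (TGANTCA), the cAMP response element (TGACGTCA), ETS (CCGGAAGT), STAT (TTCNNNGAA), FOXO (GTAAACA), EGR (GCGTGGGCG) and the E-box (CACGTG), which occur in 6.75%, 1.55%, 2.88%, 7.02%, 3.17%, 0.536% and 6.02% of 32851 windows of the same length before RefSeq starts.

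Mcl1, a short-lived survival member that is transcribed quickly after many stimuli, has 6 probe sets, all of them tested. Probe set 1456381_x_at read 351 and 190.3 in wild-type replicates 1 and 2 and 869 and 501 in Pac1-/- replicates 1 and 2. Probe set 1456243_x_at read 1221 and 713 in wild-type and 2034 and 1652 in Pac1-/- cells. Probe set 1437527_x_at read 1574 and 1222 in wild-type and 2721 and 1650.25 in Pac1-/- cells. In these 3 the Pac1-/- arrays were above both wild-type arrays, and replicate 1 was above replicate 2 in either genotype. The ending _x_at marks probe sets whose probes may also bind other transcripts, and the annotation used here gives these 3 no accession. Probe set 1416880_at, without that ending, read 398 and 402 in wild-type and 718 and 484 in Pac1-/- cells, so the wild-type arrays were nearly equal and both Pac1-/- arrays were higher. The fifth, 1448503_at, read 1646 and 1075 in wild-type and 1483 and 1099 in Pac1-/- cells, and here the genotypes overlapped. The sixth, 1416881_at, ran the other way, with 567 and 681 in wild-type and 219 and 412 in Pac1-/- cells. The log2 differences of the first 4 were 1.35 ± 0.55, 0.97 ± 0.46, 0.61 ± 0.45 and 0.56 ± 0.40 (SE, n = 2 per genotype), with limma unadjusted p between 0.0756 and 0.253. Those of the last 2 were -0.06 ± 0.44, which was 0.13 on the values as deposited and 0.75 with median centring, and -1.05 ± 0.49 (unadjusted p = 0.103). None passed the adjusted test. Each probe set other than 1448503_at kept its sign under every alternative run, but single arrays set the size. Without Pac1-/- replicate 1, 1437527_x_at was at 0.25, 1416880_at at 0.27 and 1416881_at at -0.59. Without wild-type replicate 2, 1456243_x_at was at 0.59. With Pac1-/- replicate 2 left out, 1437527_x_at was at 0.97 and 1416880_at at 0.84. Median centring put 1416881_at at -0.31 and the 4 higher probe sets between 1.24 and 2.00, where the median of all tested probe sets was 0.66. The probe sets of this gene therefore did not give 1 direction for the Mcl1 transcript, and the choice among them sets the sign.

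The bases before the Mcl1 start are shown because this gene had the most measured probe sets. They lie at chr3:95658471-95658720 on the plus strand (RefSeq, GRCm38.p6).
Mcl1: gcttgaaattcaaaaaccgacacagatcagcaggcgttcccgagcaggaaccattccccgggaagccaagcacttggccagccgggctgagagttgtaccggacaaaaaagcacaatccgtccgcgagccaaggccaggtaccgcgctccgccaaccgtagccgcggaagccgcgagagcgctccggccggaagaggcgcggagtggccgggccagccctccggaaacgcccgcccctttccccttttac
The same 7 motifs had no match in these 250 bases either.

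Bcl2l1 encodes BCL-XL, which sequesters BAX, BAK and several BH3-only proteins, and a shorter splice form that promotes death. Its 4 probe sets behaved differently. Probe set 1420888_at read 316 and 370.3 in wild-type and 309 and 279.5 in Pac1-/- cells, a narrow range in which the Pac1-/- arrays were the lower 2. Its log2 difference was -0.22 ± 0.35 (SE over 2 cultures per genotype; 95% interval -1.24 to 0.80; limma adjusted p = 0.926), and with each array centred on its median it was 0.43. Probe set 1420887_a_at read 1544 and 86.1 in wild-type and 516 and 9.2 in Pac1-/- cells. Both replicate 1 arrays were far above both replicate 2 arrays, and within each number Pac1-/- was lower. Its log2 difference was -2.00 ± 2.42 with a 95% confidence interval of -8.93 to 4.92, and it was 0.50 with Pac1-/- replicate 2 left out and 0.08 with wild-type replicate 1 left out. The untested 1426191_a_at followed the same order, with 197 on wild-type replicate 1, 38.6 on Pac1-/- replicate 1, 8.7 on wild-type replicate 2 and 2.85 on Pac1-/- replicate 2. The GAPDH ratio was 0.80 (wild-type) and 1.36 (Pac1-/-) on the replicate 1 arrays, against 0.84 and 191 on the replicate 2 arrays. The beta-actin ratio was higher on the replicate 1 arrays, at 109 (wild-type) and 293 (Pac1-/-) against 1.58 and 54.8 on the replicate 2 arrays. The summed macrophage list was higher on the replicate 1 arrays too, at 7972 (wild-type) and 6099 (Pac1-/-) against 582 and 604. The part of these ratios or of that list in the result was not tested. The last probe set, 1426050_at, read at most 23.6 on any array. The ending _a_at marks probe sets that bind several transcripts of the same gene.

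Bcl2l2 encodes BCL-W, a survival member close to BCL2 and BCL-XL. Its probe set 1423572_at was the steadiest of the tested family members, at 144 and 169.5 in wild-type and 151 and 164.5 in Pac1-/- cells. Its highest array was 1.18 times its lowest, and the genotypes overlapped. The log2 difference was 0.01 ± 0.35 (SE over 2 cultures per genotype; limma adjusted p = 0.996), and -0.12 on the values as deposited. The upper end of its 95% interval was 1.03, so a difference of that size was not shown to be absent. Probe set 1430453_a_at, not tested, read 249 on wild-type replicate 1, 49.75 on Pac1-/- replicate 1, 29.15 on wild-type replicate 2 and 5.3 on Pac1-/- replicate 2. This was the order seen in the 2 _a_at probe sets of Bcl2l1. The other 2 probe sets read below the floor of 16 on every array.

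**Figure D2:**
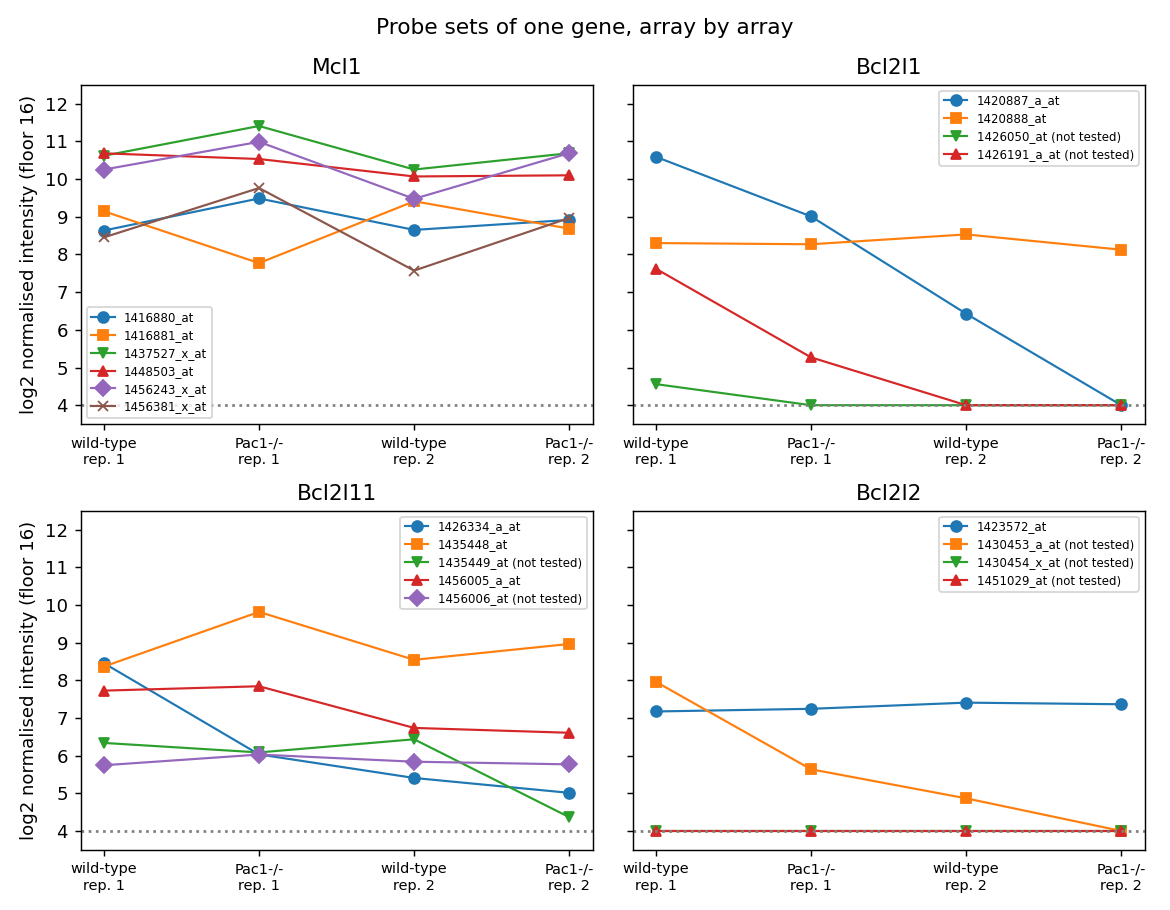
Log2 normalised intensity of each probe set of Mcl1, Bcl2l1, Bcl2l11 and Bcl2l2 on the 4 arrays, with values under 16 set to the floor (dotted line at 4); lines join the arrays for reading only. Bcl2l1 1420888_at and Bcl2l2 1423572_at run nearly level while _a_at probe sets of the same genes descend from wild-type replicate 1 to Pac1-/- replicate 2, and Mcl1 1416881_at runs against 1456381_x_at.

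Among the effectors, Bak1 encodes BAK, which sits in the mitochondrial membrane and forms pores once activated. Both of its probe sets were too dim to test. Probe set 1418991_at read 35.0 and 63.15 in wild-type and 62.5 and 40.25 in Pac1-/- cells, so the genotypes overlapped. Probe set 1425716_s_at read at most 8.3 on any array. The effector side of the family is therefore known here only as a signal below 100 for Bak1.

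Of the BH3-only genes, Bid encodes a protein that caspase-8 and granzymes cleave into an activator of BAX and BAK. Its tested probe set, 1417045_at, read 154 and 317 in wild-type and 335 and 419 in Pac1-/- cells. The higher wild-type array lay just below the lower Pac1-/- array. The log2 difference was 0.76 ± 0.53 (SE over 2 cultures per genotype; 95% interval -0.75 to 2.27; limma unadjusted p = 0.227, adjusted p = 0.866). Leaving out wild-type replicate 1 took it to 0.24 and omitting wild-type replicate 2 to 1.28, so 1 array set its size, and it was 1.40 with median centring. A second probe set, 1448560_at, was not tested and read 23.8 and 71.0 in wild-type and 42.6 and 2.6 in Pac1-/- cells.

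Bad encodes a BH3-only protein that survival kinases phosphorylate and 14-3-3 proteins then hold in the cytosol. Its probe set 1416582_a_at read 124 and 34.1 in wild-type and 129 and 131 in Pac1-/- cells. Wild-type replicate 2 was the outlying array, and the other 3 lay close together. The log2 difference of 1.00 ± 0.76 (SE over 2 cultures per genotype; limma adjusted p = 0.866) was 0.05 in replicate 1 and 1.95 in replicate 2, and without wild-type replicate 2 it was 0.07. Probe set 1416583_at, not tested, read 86.4 and 58.6 in wild-type and 60.0 and 17.7 in Pac1-/- cells.

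Bcl2l11 encodes BIM, a BH3-only protein that binds all survival members and is known for its part in the death of mast cells deprived of cytokine. Probe set 1435448_at read 329 and 373 in wild-type and 899.7 and 499 in Pac1-/- cells. Both Pac1-/- arrays were above both wild-type arrays, more so in replicate 1. The log2 difference was 0.94 ± 0.47 (SE over 2 cultures per genotype; 95% interval -0.40 to 2.27; limma unadjusted p = 0.121, adjusted p = 0.866). Without Pac1-/- replicate 1 it was 0.51, with Pac1-/- replicate 2 left out 1.36, and with median centring 1.61. Probe set 1426334_a_at read 350.25 and 42.4 in wild-type and 65.4 and 32.25 in Pac1-/- cells, with wild-type replicate 1 alone above 100. Its log2 difference was -1.41 ± 1.23, and 0.12 without wild-type replicate 1. Probe set 1456005_a_at read 211 and 106 in wild-type and 229 and 97.4 in Pac1-/- cells, so it followed the replicate number and not the genotype (-0.01 ± 0.67). The 2 untested probe sets read below 100 on every array, 1435449_at between 20.6 and 86.4 and 1456006_at between 53.6 and 65.2. As for Mcl1, the probe sets of Bcl2l11 did not share a direction.

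Bbc3 encodes PUMA, a BH3-only protein induced by p53 and by growth factor withdrawal. Its probe set, 1423315_at, read 180.2 and 278 in wild-type and 122 and 73.6 in Pac1-/- cells. Both Pac1-/- arrays were below both wild-type arrays. The log2 difference was -1.24 ± 0.49 (SE over 2 cultures per genotype; 95% interval -2.64 to 0.17; limma unadjusted p = 0.0703, adjusted p = 0.866), at -0.56 in replicate 1 and -1.92 in replicate 2. It was below zero under every alternative run, between -1.60 and -0.87. Bcl2l11 and Bbc3 are both textbook targets of the transcription factor FOXO3, and the FOXO letters were found before 1 of 2 Bcl2l11 starts and 1 of 3 Bbc3 starts. The 27 bases around each match are shown because these are the only family windows with a FOXO match. They are at chr2:128125801-128125827 and chr7:16310084-16310110, both read on the plus strand (RefSeq, GRCm38.p6), with the match in capitals.
Bcl2l11: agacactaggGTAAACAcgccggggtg
Bbc3: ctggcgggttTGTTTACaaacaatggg
The match lies 227 to 221 bases before the Bcl2l11 start, and 167 to 161 bases before the Bbc3 start, where it is on the opposite strand. Among the 16 windows of the 10 genes, 4 held any of the 7 motifs, the other 2 being E-boxes before another Bbc3 start and before Bax. The FOXO letters occur in 3.17% and the E-box in 6.02% of all 32851 windows. The share of all windows with any of the 7 motifs was not counted, so the 4 are not a result about the family. The genes with a FOXO match did not share a direction: Bbc3 read lower in Pac1-/- cells, and the Bcl2l11 probe sets were split.

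**Figure D3:**
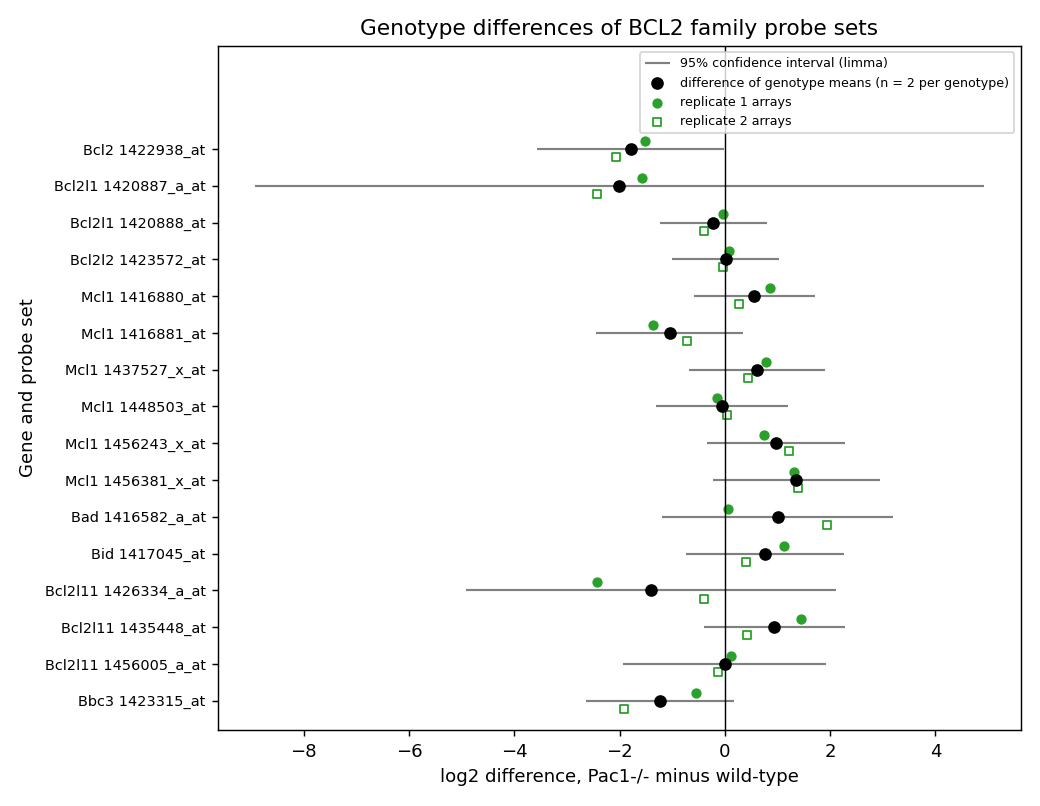
Log2 difference, Pac1-/- minus wild-type, of the 16 tested probe sets; black points are differences of genotype means with limma's 95% confidence interval (grey, n = 2 per genotype), green points the difference between arrays of one replicate number. The interval of Bcl2 ends at -0.02, and all other intervals include zero.

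Counted by probe set, neither role had a majority of 1 sign. Of 10 tested probe sets of survival genes, 5 were higher and 5 lower (median -0.02), and of 6 of BH3-only genes, 3 were higher and 3 lower (median 0.38). Of the 10 survival probe sets, 6 are of 1 gene, Mcl1. Of the 6 BH3-only probe sets, those of Bad and Bbc3 and Bcl2l11 1426334_a_at rest partly on the filter. These counts therefore cannot decide whether the roles differ by genotype. The difference ran the same way in both replicate numbers for 13 of the 16, higher in 7 and lower in 6, against 61.3% of all tested probe sets (34.0% higher and 27.3% lower). Mcl1 alone gave 4 of the 7 higher and 1 of the 6 lower. The Bad, Bcl2l11 and Bbc3 probe sets that rest partly on the filter are also among the 13, which are therefore not 13 separate pieces of evidence. Replicate number accounted for 59.2% of the sum of squares over the 16, genotype for 34.3% and neither for 6.49%, where all tested probe sets had 71.9%, 17.9% and 10.2%. One probe set, Bcl2l1 1420887_a_at, weighed heavily in that split: without it the number accounted for 36.4% and the genotype for 51.6%. It was left out because its spread between arrays, 168-fold, was the widest of the tested members. Nothing was left out of the figures for all tested probe sets, so those are no match for the reduced set. The replicate numbers did not overlap in 5 of the 16 probe sets. Replicate 1 was higher for Bcl2l1 1420887_a_at, Mcl1 1448503_at and Bcl2l11 1426334_a_at and 1456005_a_at, and replicate 2 for Bcl2l2 1423572_at. Over all tested probe sets, replicate 1 was higher without overlap in 18.5% and replicate 2 in 22.9%.

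Genes around the family gave no adjusted call either. Of 50 further genes in 3 lists, 42 had a probe set and 27, with 64 probe sets, were tested. Limma's unadjusted p was under 0.05 for 3 of the 64, against 3.38% of all tested probe sets, with 2 higher and 1 lower in Pac1-/- cells. One of the 2 higher, Usp9x 1428193_at, was under 100 on both wild-type arrays and met the minimum through the Pac1-/- arrays alone, so it is no support for a difference. Leaving out wild-type replicate 2 brought that count to 0, and leaving out Pac1-/- replicate 2 brought it to 1. The median log2 differences were -0.24 for 6 probe sets of other BCL2 family genes, 0.36 for 15 of mitochondrial partners and 0.10 for 43 of regulators. Among the mitochondrial partners, Bcap31, which encodes an endoplasmic reticulum protein that binds BCL2, read 481 and 421 in wild-type and 960.0 and 955.5 in Pac1-/- cells by 1456279_a_at. Its log2 difference was 1.09 ± 0.35 (SE over 2 cultures per genotype; limma unadjusted p = 0.0389), but omitting any 1 array or adding the replicate block (unadjusted p = 0.0511) ended that call, and the other Bcap31 probe set was at -0.10. Bag1, whose product binds BCL2 and the chaperone HSP70, read 771 and 686 in wild-type and 1230 and 1573 in Pac1-/- cells (0.94 ± 0.37). Aifm1, a flavoprotein of the mitochondrial intermembrane space, read 77.5 and 70.6 in wild-type and 123 and 155 in Pac1-/- cells by 1418127_a_at, which likewise met the minimum through the Pac1-/- arrays alone and is given as values only. Bag1 did not pass the unadjusted test. Among the regulators, Usp9x, a deubiquitinase that stabilises MCL1, read 87.2 and 54.8 in wild-type and 195 and 163 in Pac1-/- cells by 1428193_at. Its unadjusted call, which rests on the filter, ended on the values as deposited, with the intensity trend and with any 1 array left out. Of its 5 tested probe sets 4 were above zero and 1 below. Foxo3 read 683 and 691 in wild-type and 1066 and 1616 in Pac1-/- cells by 1434831_a_at (0.93 ± 0.41; unadjusted p = 0.0878) and was at 0.06 by its other tested probe set. Trib3, a stress-induced pseudokinase that can bind AKT, was the 1 with lower signal, at 637 and 898 in wild-type and 193 and 148 in Pac1-/- cells (-2.16 ± 0.41; unadjusted p = 0.00773, and 0.0504 without wild-type replicate 2), and its second tested probe set was at -0.56.

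Other BH3-only and effector genes were dim. Pmaip1, which encodes NOXA, the BH3-only protein that targets MCL1, read 49.2 and 25.7 in wild-type and 95.5 and 134 in Pac1-/- cells. Its genotypes did not overlap, but its mean was under 100 and it was not tested. Hrk, not tested either, read 64.7 and 78.5 in wild-type and 58.7 and 47.8 in Pac1-/- cells, so it was lower without overlap. Of all tested probe sets, 37.7% did not overlap. Bmf read at most 13.0 and Bok at most 22.95. The 3 Bik probe sets read at most 26.25. The Bcl2a1 genes had no probe set with a single symbol in the annotation used here.

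The member probe set with the highest mean, Mcl1 1437527_x_at, was last set against the 7084 other tested probe sets with 1 symbol, by the root mean square difference of log2 values centred over the 4 arrays. The nearest were those of Tnrc6a (0.037), Casc3 (0.057) and Gpatch1 (0.059). With 4 arrays this likeness describes 4 values per probe set and carries no test.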

How the data were processed

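Total RNA of 4 cultures, 2 wild-type and 2 Pac1-/-, was hybridised to Affymetrix mouse 430A arrays. The deposited table holds linear intensity values, which the authors computed with MAS5 according to the labels; no scaling target is stated there. The series' design text describes RMA and limma instead, and RMA values were not used here. The 64 control probe sets were left out. The arrays were quantile normalised, a floor of 16 was applied, and values were put on the log2 scale. A log2 difference is approximate where an array reads near that floor. Probe sets whose 4-array mean was 100 or more were tested with limma 3.58.1 (lmFit, eBayes; two-sided, with genotype alone in the model and Benjamini-Hochberg adjustment over all 7770, threshold 0.05) in R 4.3.3, with 2 residual and 1.71 prior degrees of freedom. The design text calls the cultures independent. With 2 arrays against 2, exact permutation reaches no p below 0.3333 and was not used. The number of arrays limits the precision. The steps were tested on simulated data, with noise independent between arrays and smaller than the spread of most tested members. That test checks the code and says nothing about the power in these data. Named from the pathway lists were genes with an unadjusted p under 0.05, filled to 6 by lowest p, and the Bcl2a1 genes, Pmaip1, Bmf, Bik, Hrk and Bok. Marker lists were read by each gene's brightest probe set. Alternatives were the deposited values, median centring, no minimum or one of 200, a floor of 64 or 1, an intensity trend, the replicate number as a block, each array left out and 1 probe set per gene. Members and lists were chosen with earlier results of these data known. Plots were drawn with matplotlib 3.10.9. RefSeq promoters were matched by symbol for 10 of 10 genes.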

Additional observations from a re-analysis of the deposited data

How the results depend on the processing

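No member passed limma's adjusted test under any of the 12 alternative fits. The count of members at limma's unadjusted p under 0.05 was 1 of 16, against 263 of all 7770 tested probe sets. It was 0 on the values as deposited, with no intensity minimum, with a minimum of 200 and with a floor of 1. With median centring it was 3 of 16, where 315 of all 7765 tested probe sets passed. With the replicate block it was 4 of 16, where 899 of all 7770 passed, so the block raised the count over the whole array too. The 3 with median centring were Mcl1 1456243_x_at and 1456381_x_at and Bcl2l11 1435448_at, and not Bcl2. The log2 difference of Bad 1416582_a_at was 1.93 without wild-type replicate 1, and that of Bcl2l11 1426334_a_at was -2.93 without wild-type replicate 2. Both had met the minimum although 1 genotype averaged under 100, so these values rest partly on the filter. The difference of Bcl2 was -2.41 without Pac1-/- replicate 1. The members' median log2 difference of 0.004 was 0.63 with median centring, where the whole array's tested median was 0.66, 0.56 with a minimum of 200, 0.31 with the brightest probe set of each of 8 genes, and -0.10 to 0.55 with an array left out. For the pathway lists the count of 3 of 64 was 14 of 101 with no minimum, where 1762 of all 22626 probe sets passed. It was 6 of 64 with the replicate block, where 899 of all 7770 passed. The cause of these shifts was not tested.

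Signs turned for 6 member probe sets, and not only for those near zero: Bcl2l1 1420887_a_at (-2.00) and Bcl2l11 1426334_a_at (-1.41) turned when an array was left out. On the values as deposited, Bcl2l2 1423572_at was at -0.12 and Mcl1 1448503_at at 0.13. With median centring, Bcl2l1 1420888_at was at 0.43, Mcl1 1448503_at at 0.75 and Bcl2l11 1456005_a_at at 0.35. With an array left out, the ranges were -4.51 to 0.50 for Bcl2l1 1420887_a_at, -0.10 to 0.13 for Bcl2l2 1423572_at, -0.37 to 0.25 for Mcl1 1448503_at, -2.93 to 0.12 for Bcl2l11 1426334_a_at and -0.62 to 0.61 for Bcl2l11 1456005_a_at. A lone array is there assumed to vary like the other genotype and is set against both replicate numbers.

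The replicate block called Bcl2 (unadjusted p = 0.00653), Bcl2l1 1420887_a_at (0.00428), Mcl1 1456381_x_at (0.0218) and Bcl2l11 1426334_a_at (0.0492), and no member by the adjusted p (lowest 0.377). These are 4 of 16 member probe sets, where the same block called 899 of all 7770 tested probe sets by unadjusted p. The Bcl2l11 call rests partly on the filter, as both Pac1-/- arrays were under 100. The labels do not say that a number pairs cultures. Deviations of same-numbered arrays from their genotype means correlated at r = 0.751 over the tested probe sets, and with 2 numbers this cannot settle a pairing. The 11 member probe sets under a mean of 100 give no reliable size.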
